A study of Mus musculus with 12 samples.

Results

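The genes described here are 35 markers of macrophages and Kupffer cells, taken by gene name from the 54532 genes of a liver RNA sequencing count table; all 35 were found, each in 1 row. Of these, 6 mark the resident Kupffer cells of the liver (Clec4f, Vsig4, Cd5l, Timd4, Marco and Spic) and were kept apart from the other 29, which monocyte-derived and other macrophages also express. Livers came from wild-type (WT) mice on chow, and every animal carried an adenovirus for 9 days. The 4 groups held 3 libraries each: ANG8 received a virus to overexpress ANGPTL8 and Ad_GFP its control virus; shANG8 received a virus to knock ANGPTL8 down and shCtrl a virus with a control hairpin. No group without a virus was analysed here. ANGPTL8 is a secreted protein of liver and fat that takes part in inhibiting lipoprotein lipase, and the study examined it for its part in lipid metabolism. Whether each library is from its own mouse is not stated, so the p-values reflect only the spread among these samples, and some of it may be technical. Of the viruses the promoter and the species of the ANGPTL8 gene, and of the mice the age and sex, were not given in the sources used here.

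Kupffer cells are the macrophages that line the sinusoids of the liver, where they clear particles, microbes, dying cells and old red cells from portal blood. They depend on signalling through the receptor CSF1R, and the ETS factor PU.1 (gene Spi1) drives the macrophage programme. When resident cells are lost, monocytes from blood can enter the niche and take up Kupffer cell genes in steps. Clec4f is restricted to Kupffer cells in mice, whereas Timd4 is gained late by cells that come from monocytes. Kupffer cells are also known to take up adenoviral particles from blood.

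Libraries held 12537083 to 15144312 counts. Levels are CPM, the counts of a gene relative to the total of its library, after scaling of the totals by edgeR's TMM method. The call rests on edgeR's quasi-likelihood test, fitted to all 12 libraries, with a Benjamini-Hochberg adjusted p under 0.05 over 14686 tested genes. The targeted gene, Angptl8, had 165, 314 and 172 CPM in the ANG8 libraries, against 96.8, 80.4 and 90.0 CPM in the Ad_GFP libraries (log2 fold change 1.28, SE 0.33, adjusted p = 0.0201). It had 144, 143 and 79.2 CPM in the shANG8 libraries, against 340, 391 and 167 CPM in the shCtrl libraries, without overlap but short of the threshold (-1.29, SE 0.33, adjusted p = 0.235). Mitochondrial genes took 39.0%, 43.8% and 22.5% of the counts in the ANG8 libraries, against 19.8%, 34.9% and 26.4% in the Ad_GFP libraries, and 19.3% to 22.9% in shANG8, against 22.9% to 24.2% in shCtrl. Markers of hepatocytes, the cells that make up most of the liver, were measured in every library, with a summed level of 27576 to 56256 CPM in ANG8 and 48530.2 to 73560.3 CPM in Ad_GFP.

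Under the virus that overexpresses ANGPTL8, 25 of the 34 members tested rose, 0 fell and 9 did not pass. Over all 14686 genes tested, 7.08% were called higher and 6.39% lower in this comparison. In 32 of the 34 members each ANG8 library lay above each Ad_GFP library, an arrangement found in 17.9% of all genes tested. The median log2 fold change of the members was 1.25, beside -0.00022 for all genes tested, and it ranged from 0.18 to 2.19. The resident markers and the other members had close medians, at 1.28 for 6 genes and 1.25 for 28 genes. Of the resident markers 5 of 6 rose, and of the others 20 of 28 rose. In these bulk samples, more cells of a type and more RNA per cell cannot be told apart.

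Among the resident markers, Cd5l, which encodes a protein that macrophages secrete and that protects them from apoptosis (ENSMUSG00000015854, chromosome 3, 87357881 to 87371073, plus strand), had 245, 281 and 259 CPM in ANG8, against 76.0, 72.0 and 102 CPM in Ad_GFP (log2 fold change 1.65, SE 0.24, adjusted p = 0.000428). The 3 ANG8 libraries lay close together and far above every Ad_GFP library. Spic, an ETS transcription factor of iron-handling macrophages (ENSMUSG00000004359, chromosome 10, 88674772 to 88685015, minus strand), had 12.7, 17.7 and 11.6 CPM in ANG8, against 5.63, 3.55 and 4.71 CPM in Ad_GFP (log2 fold change 1.59, SE 0.29, adjusted p = 0.00217). Marco, a scavenger receptor for bacteria and particles (ENSMUSG00000026390, chromosome 1, 120474538 to 120505024, minus strand), had 10.8, 11.8 and 16.3 CPM in ANG8, against 5.38, 2.89 and 4.17 CPM in Ad_GFP (log2 fold change 1.64, SE 0.49, adjusted p = 0.045). Both genes were higher in each ANG8 library than in any Ad_GFP library, at much lower levels than Cd5l.

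Clec4f, the C-type lectin restricted to Kupffer cells (ENSMUSG00000014542, chromosome 6, 83644542 to 83656187, minus strand), had 110.5, 114 and 149.8 CPM in ANG8, against 62.7, 86.6 and 85.6 CPM in Ad_GFP (log2 fold change 0.67, SE 0.18, adjusted p = 0.0196). The groups did not overlap, and ANG8 replicate 3 stood highest. Timd4, a receptor for the phosphatidylserine of dying cells (ENSMUSG00000055546, chromosome 11, 46810800 to 46844332, plus strand), had 17.4, 18.1 and 16.0 CPM in ANG8, against 9.62, 7.40 and 9.28 CPM in Ad_GFP (log2 fold change 0.97, SE 0.31, adjusted p = 0.049). Vsig4, a complement receptor of Kupffer cells (ENSMUSG00000044206, chromosome X, 96247203 to 96293438, minus strand), had 7.03, 9.51 and 10.7 CPM in ANG8, against 4.68, 3.63 and 5.92 CPM in Ad_GFP, and the difference did not pass the test (log2 fold change 0.94, SE 0.37, adjusted p = 0.102). For Timd4 and Vsig4 each ANG8 library again lay above each Ad_GFP library. The calls of 3 of these genes did not hold in every fit: over 21 alternatives Clec4f passed in 19, Marco in 11 and Timd4 in 10. Clec4f was lost without Ad_GFP replicate 1 (adjusted p = 0.1) or ANG8 replicate 3 (0.0936), while Marco and Timd4 were lost, among others, without any 1 of the 6 libraries of this comparison, with a highest adjusted p of 0.176 and 0.169, both without Ad_GFP replicate 2. Marco also did not pass with the replicate number as a block (adjusted p = 0.061).

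**Figure D1:**
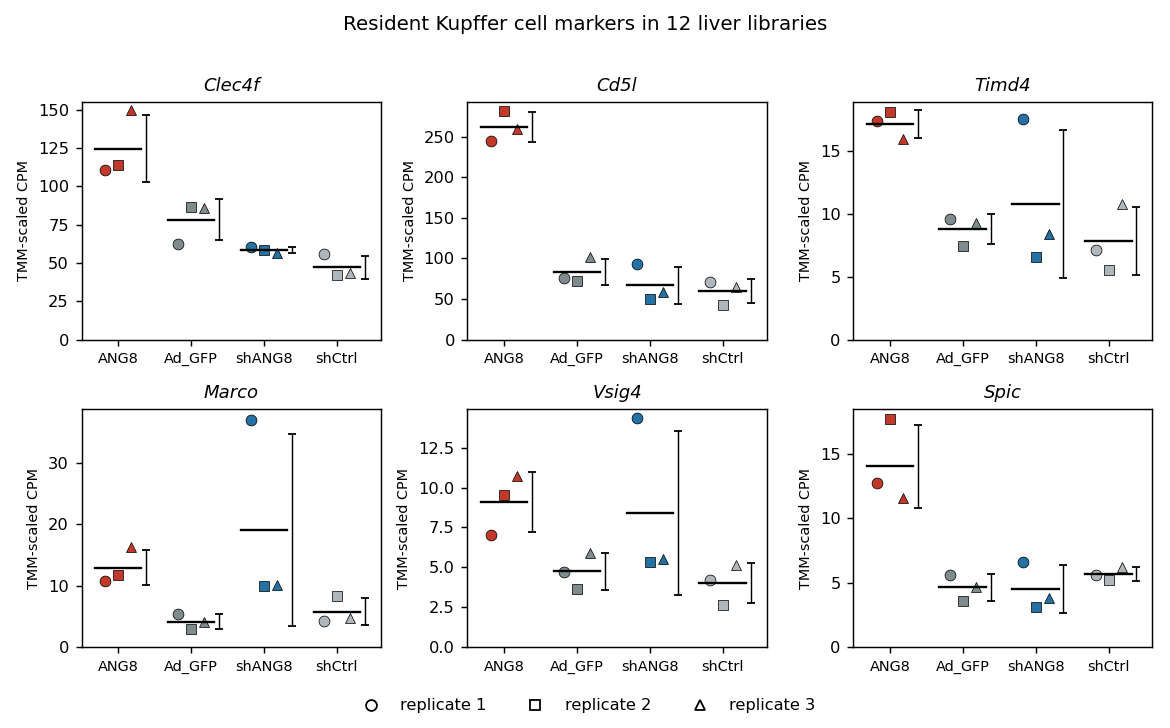
TMM-scaled CPM of the 6 resident Kupffer cell markers in each library (points, shaped by replicate number, n = 3 a group), with the group mean (line) and SD (bar). All 6 markers were higher in each ANG8 library than in any Ad_GFP library, and the shANG8 replicate 1 library held the highest level of Marco (37.0 CPM) and of Vsig4 (14.3 CPM).

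The macrophage regulators Spi1 and Csf1r and the general marker Adgre1 rose as well. Spi1, which encodes PU.1 (ENSMUSG00000002111, chromosome 2, 91082390 to 91115756, plus strand), had 75.0, 66.7 and 88.3 CPM in ANG8, against 31.2, 23.0 and 35.4 CPM in Ad_GFP (log2 fold change 1.36, SE 0.21, adjusted p = 0.000803). Csf1r, the receptor of CSF1 and IL-34 (ENSMUSG00000024621, chromosome 18, 61105572 to 61132149, plus strand), had 133, 155 and 163 CPM in ANG8, against 70.4, 67.3 and 90.0 CPM in Ad_GFP (log2 fold change 0.98, SE 0.19, adjusted p = 0.00274). Adgre1, which encodes the F4/80 antigen of mouse macrophages, had 21.1, 25.9 and 16.3 CPM in ANG8, against 6.01, 6.59 and 9.48 CPM in Ad_GFP (log2 fold change 1.51, SE 0.31, adjusted p = 0.00436). In all 3 genes the lowest ANG8 library exceeded the highest Ad_GFP library. Of the 5774 exon bases of Csf1r in the GENCODE M21 annotation, 15.1% overlap the gene Hmgxb3 on the other strand. The count table gives Csf1r a shorter length of 4885 bases, so whether the overlapping bases were counted is not known. How strand was set in the counting was not given either, so that reads of any such bases cannot be told apart.

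Aif1, which encodes the actin-binding macrophage protein IBA1 (ENSMUSG00000024397, chromosome 17, 35170991 to 35176068, minus strand), had the smallest p of the members, with 58.8, 57.0 and 45.0 CPM in ANG8, against 16.3, 11.3 and 16.7 CPM in Ad_GFP (log2 fold change 1.86, SE 0.20, adjusted p = 5.36e-05). Its level in ANG8 was 3.63 times that in Ad_GFP, and the library values of the groups lay far apart. Mpeg1, which encodes the pore-forming protein perforin-2 of phagosomes, had 266, 279 and 318 CPM in ANG8, against 179.9, 118 and 143 CPM in Ad_GFP (log2 fold change 0.97, SE 0.20, adjusted p = 0.00395). Laptm5, a lysosomal membrane protein of blood-derived cells, had 51.4, 55.2 and 41.2 CPM in ANG8, against 14.4, 15.6 and 20.9 CPM in Ad_GFP (log2 fold change 1.53, SE 0.28, adjusted p = 0.00251). Neither gene overlapped between the groups. Cybb, the catalytic subunit of the phagocyte NADPH oxidase, had 41.6, 51.6 and 42.9 CPM in ANG8, against 17.1, 16.9 and 22.7 CPM in Ad_GFP (log2 fold change 1.26, SE 0.25, adjusted p = 0.00412). Lgals3, which encodes the glycan-binding protein galectin-3, had 85.0, 83.6 and 99.4 CPM in ANG8, against 30.2, 26.3 and 43.4 CPM in Ad_GFP (log2 fold change 1.42, SE 0.24, adjusted p = 0.00161). The ANG8 libraries of both genes stood well apart from the Ad_GFP libraries.

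Of the 3 chains of C1q, 2 rose by edgeR and all 3 by DESeq2 and voom, and the 3 Fc receptors and both adaptor genes rose. C1qb, C1qc and C1qa encode the B, C and A chains of C1q, the first component of the classical complement pathway, and lie side by side on chromosome 4 (136880129 to 136886187, 136889804 to 136893065 and 136895917 to 136898803, all on the minus strand). C1qb had 195, 175 and 237 CPM in ANG8, against 99.6, 81.2 and 102 CPM in Ad_GFP (log2 fold change 1.10, SE 0.21, adjusted p = 0.00253). C1qc had 139, 139.8 and 205 CPM in ANG8, against 60.5, 47.7 and 71.5 CPM in Ad_GFP (log2 fold change 1.43, SE 0.26, adjusted p = 0.00254). C1qa had 136, 92.5 and 255 CPM in ANG8, against 78.6, 41.8 and 86.2 CPM in Ad_GFP and did not pass (log2 fold change 1.23, SE 0.42, adjusted p = 0.0754), though it passed with DESeq2 (0.00566) and voom (0.0443); the adjusted p ran from 0.00225 to 0.269 over 21 alternatives. The ANG8 libraries of all 3 genes lay above all Ad_GFP libraries, but C1qa spread widely within ANG8, with replicate 3 highest and replicate 2 lowest. Replicate 3 was also the highest ANG8 library for C1qb and C1qc.

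Of the receptors for the Fc part of IgG, the high-affinity Fcgr1 had 33.0, 29.2 and 36.2 CPM in ANG8, against 10.4, 8.66 and 15.6 CPM in Ad_GFP (log2 fold change 1.50, SE 0.27, adjusted p = 0.00217). Fcgr3 had 36.4, 44.7 and 41.2 CPM in ANG8, against 16.3, 15.5 and 17.4 CPM in Ad_GFP (log2 fold change 1.31, SE 0.26, adjusted p = 0.00324). Fcgr4 had 36.3, 36.4 and 52.2 CPM in ANG8, against 14.5, 12.7 and 15.0 CPM in Ad_GFP (log2 fold change 1.57, SE 0.29, adjusted p = 0.00254). All 3 receptors were thus raised, without overlap between the groups; 9.58% of the 50-base stretches of the Fcgr3 transcripts also occur in another gene, chiefly Fcgr2b, and its value is uncertain to that extent. Fcer1g, the signalling chain that these receptors share, had 67.1, 57.9 and 92.7 CPM in ANG8, against 31.4, 18.6 and 31.9 CPM in Ad_GFP (log2 fold change 1.41, SE 0.24, adjusted p = 0.0017). Tyrobp, the adaptor DAP12 that serves TREM2 and other receptors, had 49.8, 57.9 and 62.1 CPM in ANG8, against 27.3, 20.7 and 29.7 CPM in Ad_GFP (log2 fold change 1.13, SE 0.23, adjusted p = 0.00422). The 2 adaptors, like the receptors, were higher in each ANG8 library than in any Ad_GFP library.

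Msr1, a scavenger receptor of modified lipoproteins, had 31.1, 29.8 and 33.5 CPM in ANG8, against 10.1, 15.1 and 14.8 CPM in Ad_GFP (log2 fold change 1.24, SE 0.24, adjusted p = 0.00309). Axl, a receptor kinase for the removal of dying cells, had 44.5, 55.6 and 66.6 CPM in ANG8, against 24.7, 26.7 and 35 CPM in Ad_GFP (log2 fold change 0.95, SE 0.21, adjusted p = 0.00614). Both rose in every ANG8 library against every Ad_GFP library. Clec1b, the podoplanin receptor CLEC-2 of platelets and Kupffer cells, had 43.8, 42.1 and 42.3 CPM in ANG8, against 13.2, 16.0 and 18.6 CPM in Ad_GFP (log2 fold change 1.42, SE 0.23, adjusted p = 0.000996). Its ANG8 libraries agreed closely. Of 7 platelet markers 4 were tested and 0 were called by edgeR, DESeq2 or voom (0 at an unadjusted p under 0.05), with a summed level of 9.16 to 13.1 CPM in ANG8 and 9.28 to 13 CPM in Ad_GFP and Gp1bb at 0 in both.

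The remaining called members were Gpnmb, a glycoprotein of lysosomes in lipid-laden macrophages (log2 fold change 2.19, SE 0.54, adjusted p = 0.0128), and Cd68, a lysosomal glycoprotein (log2 fold change 0.92, SE 0.28, adjusted p = 0.0403). Gpnmb averaged 5.24 ± 0.308 CPM in ANG8 and 1.13 ± 0.941 CPM in Ad_GFP (SD, n = 3 each). It did not pass when Ad_GFP replicate 1 was left out (adjusted p = 0.0559). Cd68 averaged 33.4 ± 14.1 CPM in ANG8 and 17.7 ± 3.67 CPM in Ad_GFP. Its log2 fold change was 0.50 without ANG8 replicate 3 (adjusted p = 0.246), and its call was also lost without Ad_GFP replicate 1, Ad_GFP replicate 2, ANG8 replicate 1, shCtrl replicate 1, shCtrl replicate 2 or shANG8 replicate 1 (0.0528 to 0.151).

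Of the 9 members that did not pass, besides C1qa and Vsig4, 5 had few counts: Ms4a7, a membrane protein of tissue macrophages (1.47, SE 0.64, adjusted p = 0.14), the lipid receptor gene Trem2 (1.06, SE 0.47, adjusted p = 0.147), the lipopolysaccharide co-receptor gene Cd14 (0.84, SE 0.50, adjusted p = 0.3), the monocyte marker Ly6c2 (0.57, SE 0.37, adjusted p = 0.348) and Itgam, the integrin CD11b (0.82, SE 0.66, adjusted p = 0.467), given as log2 fold changes with edgeR's adjusted p. Their mean levels in ANG8 were 2.35 to 6.95 CPM, a range that also held Gpnmb, which was called. Each of these 5 genes lay above Ad_GFP in every library. Lyz2, the lysozyme of macrophages and neutrophils, had 33.0, 32.6 and 46.3 CPM in ANG8, against 30.6, 21.7 and 46.7 CPM in Ad_GFP (log2 fold change 0.18, SE 0.47, adjusted p = 0.851). Cd163, the receptor for haemoglobin bound to haptoglobin, had 2.10, 3.93 and 3.09 CPM in ANG8, against 0.696, 4.37 and 2.69 CPM in Ad_GFP (log2 fold change 0.24, SE 0.57, adjusted p = 0.83). In these last 2 genes the groups overlapped. Folr2, a folate receptor of tissue macrophages, had 0 to 15 counts in any library and was not tested. Several of these genes share sequence with others, and their values are uncertain to that extent. Of the exon bases, 68.7% in Itgam overlap Gm49368 on the same strand and 63.1% in Folr2 overlap Gm10602 on the other strand. Moreover, 15.4% of the 50-base stretches of Lyz2 occur in another gene, chiefly Lyz1, and 14.5% of those of Ly6c2 do so, chiefly in Ly6c1.

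**Figure D2:**
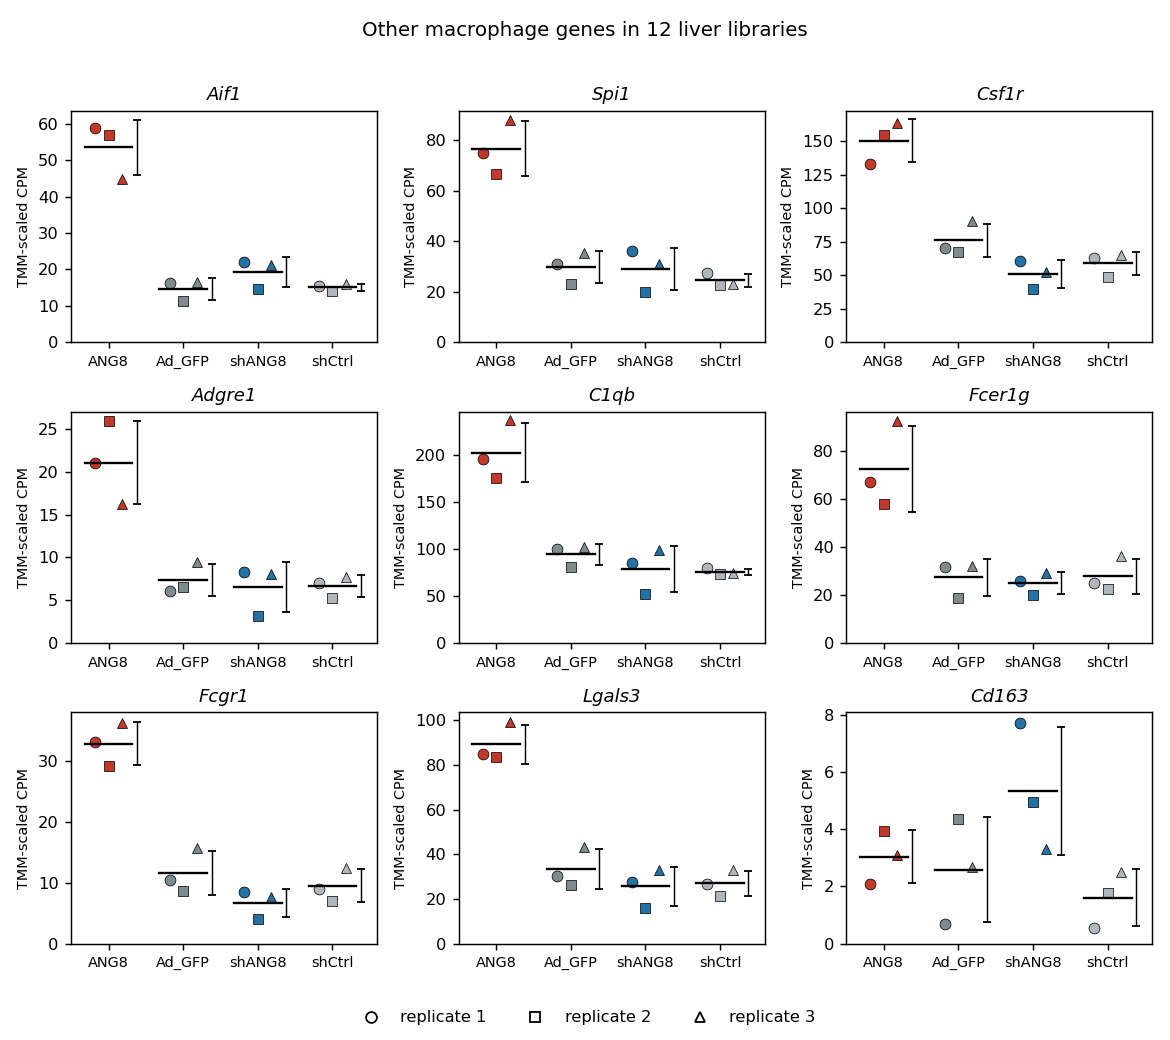
TMM-scaled CPM of 9 other macrophage genes in each library (points, shaped by replicate number, n = 3 a group), with the group mean (line) and SD (bar). For 8 of them each ANG8 library lay above every library of the other groups; Cd163 was highest in shANG8 replicate 1 (7.73 CPM).

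To set the levels of different genes side by side, CPM were divided by the gene length that the table gives. In ANG8 the order was led by C1qb (186 CPM per kilobase), C1qa (155), Cd5l (129), Tyrobp (84.8) and C1qc (83.7), and in Ad_GFP by C1qb (86.6), C1qa (66.2), Cd5l (41.0), Tyrobp (38.8) and Mpeg1 (33.9). Clec4f stood at 50.4 CPM per kilobase in ANG8 and 31.7 in Ad_GFP. The monocyte marker Ly6c2 stood at 1.95 in ANG8 and 1.31 in Ad_GFP, and Itgam at 0.522 and 0.296. In ANG8 and Ad_GFP, C1qb, C1qa and Cd5l thus led the members at the level of RNA per gene length, and Folr2 came last. The levels of Itgam and Folr2 are uncertain, as 68.7% and 63.1% of their exon bases overlap another gene. How reads of such bases were counted is not known.

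**Figure D3:**
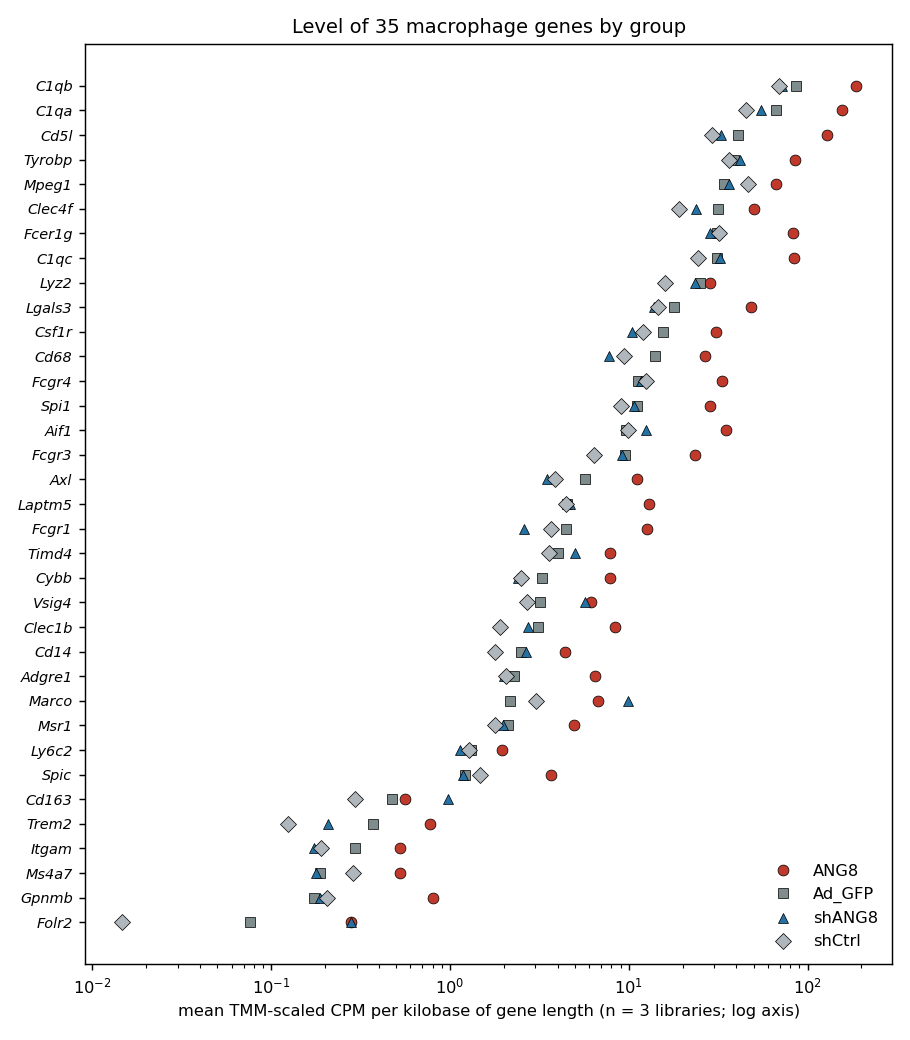
Mean TMM-scaled CPM per kilobase of gene length (log axis) of the 35 members in each of the 4 groups (n = 3 libraries each), ordered by the Ad_GFP level. The ANG8 points lie to the right of the others for most genes, while Marco, Cd163 and Vsig4 also have high shANG8 points.

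The promoters of the members were also searched for the core of the DNA sequence that PU.1 binds. RefSeq promoter sequences (build GRCm38.p6) were at hand for 28 of the 35 members, 32 promoters in all, and the 250 bases before each start were read on both strands for GAGGAA or its reverse complement TTCCTC. Of the 28 members 15 held it, or 53.6%, as did 25.9% of all 27025 genes with a promoter in the table. The longer form GAGGAAGT, or ACTTCCTC, of which GAGGAA is a part, was found in 3 members (Fcgr4, C1qc and Ly6c2), or 10.7%, and in 2.79% of all genes. A match describes letters in a window and is not a measured binding site. The shares compare macrophage genes with all genes, not with macrophage genes that did not rise. Their bearing on the rise in ANG8 was not tested. Below are the 250 bases before the start, from 5′ to 3′ on the strand of the gene, of 4 members that rose in ANG8, Aif1 (chr17:35176053-35176302, minus strand), Cd5l (chr3:87357631-87357880, plus strand), Fcgr4 (chr1:171018676-171018925, plus strand) and C1qb (chr4:136886201-136886450, minus strand), and of a resident marker with positive log2 fold changes short of the threshold in both arms, Vsig4 (chrX:96293439-96293688, minus strand). Capitals mark the core.
Aif1: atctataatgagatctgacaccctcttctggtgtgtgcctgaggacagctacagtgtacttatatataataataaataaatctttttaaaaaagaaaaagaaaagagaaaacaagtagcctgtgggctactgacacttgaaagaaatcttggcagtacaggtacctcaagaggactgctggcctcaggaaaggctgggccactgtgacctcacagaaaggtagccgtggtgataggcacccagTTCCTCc
Cd5l: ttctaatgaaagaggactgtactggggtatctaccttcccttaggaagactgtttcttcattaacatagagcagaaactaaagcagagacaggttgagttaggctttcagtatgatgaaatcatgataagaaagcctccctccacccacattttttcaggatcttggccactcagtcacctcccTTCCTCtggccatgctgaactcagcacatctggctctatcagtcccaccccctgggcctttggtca
Fcgr4: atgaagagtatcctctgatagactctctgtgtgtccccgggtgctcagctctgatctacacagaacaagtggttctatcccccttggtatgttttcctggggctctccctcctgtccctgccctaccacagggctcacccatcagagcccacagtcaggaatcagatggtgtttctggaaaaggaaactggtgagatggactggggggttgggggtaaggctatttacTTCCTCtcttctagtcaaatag
C1qb: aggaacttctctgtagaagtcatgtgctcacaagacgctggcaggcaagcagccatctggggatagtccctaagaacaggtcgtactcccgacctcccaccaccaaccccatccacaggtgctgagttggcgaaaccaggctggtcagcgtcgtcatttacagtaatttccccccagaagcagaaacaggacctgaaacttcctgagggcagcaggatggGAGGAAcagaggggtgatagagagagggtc
Vsig4: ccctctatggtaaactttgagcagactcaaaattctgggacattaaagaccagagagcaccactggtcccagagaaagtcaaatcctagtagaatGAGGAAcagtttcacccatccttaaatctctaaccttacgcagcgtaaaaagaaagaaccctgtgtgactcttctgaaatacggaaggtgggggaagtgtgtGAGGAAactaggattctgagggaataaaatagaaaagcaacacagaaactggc
The nearest core ended 1 base before the start in Aif1, 16 bases before it in Fcgr4, 24 in C1qb, 47 in Vsig4 and 60 in Cd5l. In the windows of Clec4f, Timd4 and Spic these letters were not found. Of the other members called higher in ANG8, Fcer1g, Mpeg1, Cybb, Lgals3, Clec1b and Gpnmb lacked them too. So did Cd163, Lyz2 and Ms4a7, which were not called, and Folr2, which was not tested. Itgam, Ly6c2, Trem2 and Vsig4 held the core and were not called either. The core was thus found, and was missing, both in members with a call and in members without 1.

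Under the virus that knocks ANGPTL8 down no member passed the test, and the log2 fold changes were largest for Cd163, Marco and Vsig4, of which the last 2 are resident markers. Of the 34 members tested, edgeR called 0, beside 0.191% of all genes tested (0.0613% higher and 0.129% lower). Without adjustment, 4 members had an unadjusted p under 0.05, beside 7.93% of all genes. DESeq2 called 1 member, Marco, and limma voom called 0. The median log2 fold change was 0.11, beside 0.0079 for all genes, with 0.39 for the 6 resident markers and 0.01 for the other 28. The value was above 0 in 19 of 34 members, beside 51.1% of all genes. Each shANG8 library lay above each shCtrl library in 4 members, Marco, Vsig4, Cd163 and Clec4f, of which 3 are resident markers, and below in 0; over all genes tested these arrangements were found in 6.16% and 6.78%.

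Marco had 37.0, 9.99 and 10.1 CPM in shANG8, against 4.28, 8.34 and 4.79 CPM in shCtrl (log2 fold change 1.71, SE 0.48, adjusted p = 0.33). Cd163 had 7.73, 4.96 and 3.30 CPM in shANG8, against 0.543, 1.78 and 2.51 CPM in shCtrl (log2 fold change 1.73, SE 0.59, adjusted p = 0.459). Vsig4 had 14.3, 5.35 and 5.55 CPM in shANG8, against 4.21, 2.66 and 5.17 CPM in shCtrl (log2 fold change 1.07, SE 0.37, adjusted p = 0.467). In all 3 genes shANG8 replicate 1 was the highest of the 12 libraries. Without that library the log2 fold changes were 0.77 for Marco, 1.34 for Cd163 and 0.42 for Vsig4 (adjusted p = 0.672, 0.712 and 0.843). Marco passed with DESeq2 (adjusted p = 0.0242) and without the filter on low counts (0.00346), as did Cd163 without the filter (0.0188).

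Clec4f had 60.2, 58.8 and 56.3 CPM in shANG8, against 55.8, 42.4 and 43.3 CPM in shCtrl (log2 fold change 0.31, SE 0.18, adjusted p = 0.712). Cd5l had 92.8, 49.6 and 58.1 CPM in shANG8, against 71.3, 43.1 and 64.5 CPM in shCtrl (log2 fold change 0.16, SE 0.23, adjusted p = 0.921). Timd4 had 17.5, 6.53 and 8.37 CPM in shANG8, against 7.13, 5.53 and 10.8 CPM in shCtrl (log2 fold change 0.47, SE 0.32, adjusted p = 0.762). The shANG8 libraries of Clec4f lay close to each other and above shCtrl, while those of Cd5l and Timd4 overlapped shCtrl and were highest in replicate 1. Spic had 6.59, 3.15 and 3.80 CPM in shANG8, against 5.63, 5.19 and 6.23 CPM in shCtrl (log2 fold change -0.33, SE 0.29, adjusted p = 0.843). Clec1b, with the fourth smallest p of the members, had 20.5, 9.13 and 12.3 CPM in shANG8, against 10.7, 9.29 and 9.12 CPM in shCtrl (log2 fold change 0.52, SE 0.24, adjusted p = 0.604). Both overlapped between the groups.

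Replicate 1 and replicate 2 of shANG8 stood at opposite ends of their group. Replicate 1 had the highest shANG8 level in 24 of 35 members and replicate 2 the lowest in 29, and the summed level of the members was 1063 CPM in replicate 1, 636 in replicate 2 and 934 in replicate 3, against 809, 778 and 926 CPM in shCtrl. Without replicate 1 the median log2 fold change of the members was -0.13. The excess of replicate 1 was uneven among the members. Cd14 had 9.17, 1.34 and 1.97 CPM in shANG8, against 2.71, 2.66 and 3.04 CPM in shCtrl, Lyz2 had 56.5, 14.6 and 21.8 CPM in shANG8, against 15.5, 18.6 and 29.2 CPM in shCtrl, and Folr2 had 15, 2 and 0 counts in shANG8, against 1, 0 and 0 in shCtrl. In Csf1r, Mpeg1 and Fcgr1, replicate 1 lay inside the range of shCtrl or below it: Csf1r had 60.6, 39.5 and 52.2 CPM in shANG8, against 62.7, 48.8 and 64.9 CPM in shCtrl, Mpeg1 had 151, 153 and 169 CPM in shANG8, against 154, 206 and 242 CPM in shCtrl and Fcgr1 had 8.41, 4.09 and 7.66 CPM in shANG8, against 8.96, 7.04 and 12.4 CPM in shCtrl. Mitochondrial genes took 22.7% of the counts of shANG8 replicate 1, 22.9% of replicate 2 and 19.3% of replicate 3. The members other than those named in this arm differed by log2 fold changes of -0.65 (Ms4a7) to 0.75 (Trem2), with adjusted p of 0.647 to 0.994.

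**Figure D4:**
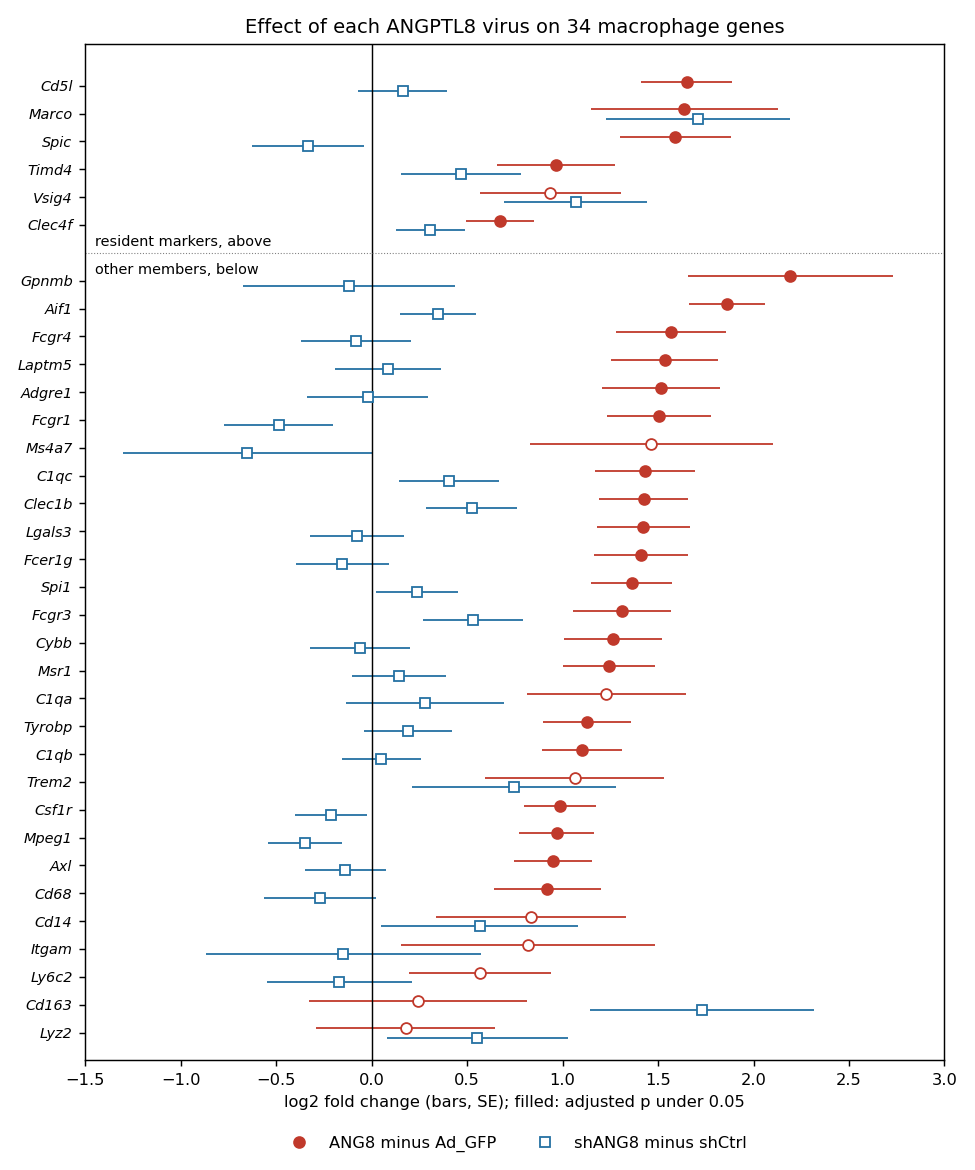
Log2 fold change (point) and SE (bar) of each of the 34 members tested, for ANG8 minus Ad_GFP (circles) and shANG8 minus shCtrl (squares), with called genes filled. Of the circles 25 are filled and all 34 lie above 0, whereas none of the squares is filled and 19 lie above 0.

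The difference between the effects was tested directly, as ANG8 minus Ad_GFP less shANG8 minus shCtrl. It was called in 15 of the 34 members, all with a higher value under ANG8. Of all genes tested 6.62% were called, 3.72% in that direction and 2.9% in the other, in which no member was called. The difference was above 0 in 30 of 34 members, beside 49.4% of all genes. Fcgr1 differed most among the called members (log2 fold change 1.99, SE 0.39, adjusted p = 0.00793), followed by Spic (1.92, SE 0.41, adjusted p = 0.012), Fcgr4 (1.65, SE 0.41, adjusted p = 0.0245), Fcer1g (1.56, SE 0.34, adjusted p = 0.015) and Adgre1 (1.54, SE 0.44, adjusted p = 0.0467). Aif1 had the smallest p (1.51, SE 0.28, adjusted p = 0.00529). Of the resident markers Cd5l (1.49, SE 0.33, adjusted p = 0.015) and Spic were called, whereas Clec4f (0.36, SE 0.25, adjusted p = 0.438), Timd4 (0.50, SE 0.44, adjusted p = 0.563), Vsig4 (-0.13, SE 0.52, adjusted p = 0.921) and Marco (-0.07, SE 0.69, adjusted p = 0.97) were not. The medians were 0.43 for the resident markers, 1.11 for the others and -0.0086 for all genes. Marco and Vsig4 had positive log2 fold changes of similar size in both arms, and their differences had SE of 0.69 and 0.52; without shANG8 replicate 1 the differences were 0.87 (adjusted p = 0.271) and 0.52 (adjusted p = 0.555). The count of 15 was 8 without Ad_GFP replicate 1, Ad_GFP replicate 2, shCtrl replicate 1 or shCtrl replicate 3, and 9 without shANG8 replicate 2; 8 members (Aif1, Fcgr1, Mpeg1, Spic, Fcer1g, Csf1r, Cd5l and Lgals3) were called under all 20 alternatives.

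The control viruses were also compared, since each arm is read from its own control. No gene was called by edgeR between shCtrl and Ad_GFP (0% of 14686 genes, 8.76% at an unadjusted p under 0.05). Of the members, 0 were called, 6 had an unadjusted p under 0.05, DESeq2 called 1 (Clec4f, lower) and voom 0. The median log2 fold change of the members was -0.30, beside -0.02 for all genes, and 8 members were above 0, beside 47.9% of all genes. Each shCtrl library lay below each Ad_GFP library in 11 of 34 members, beside 8.45% of all genes, and above in 0. Clec4f had 55.8, 42.4 and 43.3 CPM in shCtrl, against 62.7, 86.6 and 85.6 CPM in Ad_GFP (log2 fold change -0.73, SE 0.18, adjusted p = 0.372). Trem2 averaged 0.615 ± 0.381 CPM in shCtrl and 1.83 ± 0.327 CPM in Ad_GFP (SD, n = 3 each; -1.56, SE 0.52, adjusted p = 0.442). Mpeg1 was among the 8 members with a positive value, at 0.45 (SE 0.19, adjusted p = 0.533). Angptl8 itself was higher in each shCtrl library than in any Ad_GFP library, short of the threshold (log2 fold change 1.75, SE 0.33, adjusted p = 0.338). Its mean was 217 ± 84.0 CPM in ANG8, 299 ± 117 CPM in shCtrl and 89.1 ± 8.24 CPM in Ad_GFP (SD, n = 3 each), so that the level in the control hairpin group overlapped that in the overexpression group; shCtrl and ANG8 were not tested against each other. The comparisons of shCtrl and of ANG8 with Ad_GFP share the Ad_GFP libraries.

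Other genes of macrophage biology were read from lists beside the members. Of 20 further Kupffer cell genes, 8 rose under ANG8 and 1 fell (median 0.78); under shANG8 edgeR called 0 of 20 (median 0.01, 4 at an unadjusted p under 0.05), DESeq2 called 1, C6, lower, and voom 0. Slc40a1, the iron exporter ferroportin, averaged 311 ± 40.5 CPM in ANG8 and 153 ± 8.16 CPM in Ad_GFP (SD, n = 3 each) (1.03, SE 0.18, adjusted p = 0.00202). Slc11a1, a metal transporter of phagosomes (1.23, SE 0.18, adjusted p = 0.000398), Cfp, the complement factor properdin (1.13, SE 0.17, adjusted p = 0.000695), and Sdc3, a syndecan (1.43, SE 0.24, adjusted p = 0.00123), also rose. The gene that fell was C6, a terminal complement component (-0.81, SE 0.18, adjusted p = 0.00859); it averaged 105 ± 12.8 CPM in ANG8 and 184 ± 28.8 CPM in Ad_GFP.

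Of 24 regulators of Kupffer cells and genes of the CSF1 axis, 10 rose under ANG8 and 0 fell (median 0.56). The log2 fold change was above 0 in 16 of the 24, beside 50% of all genes, and its lowest value was -1.15. Their summed level did not rise, at 1113 to 1579 CPM in ANG8 and 1285 to 1490 CPM in Ad_GFP. The genes that rose included Irf8, a transcription factor of myeloid cells (1.11, SE 0.19, adjusted p = 0.00161), Tfec, a macrophage transcription factor (1.52, SE 0.29, adjusted p = 0.00283), Id1, an inhibitor of DNA binding (1.07, SE 0.22, adjusted p = 0.00398), and Hmox1, the haem oxygenase of red cell recycling (1.55, SE 0.28, adjusted p = 0.00222). The ligands of CSF1R, which are outside the rule for named genes, did not pass, with Csf1 at 0.69 and Il34 at -0.29 (adjusted p = 0.0891 and 0.824); voom called Csf1, higher. Of 30 genes of phagocyte signalling and receptors, 21 rose and 0 fell (median 0.86), among them Sirpa, the inhibitory receptor for CD47 (1.37, SE 0.17, adjusted p = 0.000153), Havcr2, the checkpoint receptor TIM-3 (2.18, SE 0.35, adjusted p = 0.000988), and Cyba, the partner of Cybb in the NADPH oxidase (1.13, SE 0.19, adjusted p = 0.00108). Of 22 tested genes of monocytes and lipid-associated macrophages, 4 rose and 0 fell by edgeR (median 0.93), with 6 higher and 1 lower by DESeq2 and 5 higher and 0 lower by voom. Those called by edgeR included the chemokine receptor Cx3cr1 (2.09, SE 0.49, adjusted p = 0.00998), the beta-glucan receptor Clec7a (1.71, SE 0.36, adjusted p = 0.00842) and Plac8 (1.48, SE 0.28, adjusted p = 0.00254). Under shANG8, edgeR, DESeq2 and voom called 0 genes of these 3 lists (medians 0.17, -0.23 and -0.13; 4, 5 and 2 genes at an unadjusted p under 0.05).

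Markers of other cell types moved with the members in part, and their part in the results was not tested. Of 17 T and NK cell markers 8 rose and 1 fell (summed level 159 to 183 CPM in ANG8 and 66.4 to 93.5 CPM in Ad_GFP), of 13 dendritic cell markers tested 5 rose and 0 fell (1333 to 2217 CPM in ANG8 and 457 to 810.3 CPM in Ad_GFP), of which 4 (Cd74, H2-Aa, H2-Ab1 and H2-Eb1) belong to antigen presentation by MHC class II, which macrophages and B cells share, and of 12 cell cycle genes 7 rose and 0 fell (208 to 322 CPM in ANG8 and 87.6 to 119 CPM in Ad_GFP); no gene of these lists was at 0 in a whole group. EdgeR called 0 of 18 endothelial markers (3 at an unadjusted p under 0.05, and 1, Pecam1, with DESeq2 and with voom; 272 to 315 CPM in ANG8 and 218 to 289 CPM in Ad_GFP). It called 0 of 14 stellate markers (2; 127 to 242 CPM in ANG8 and 93.9 to 241 CPM in Ad_GFP), 0 of 10 B and plasma cell markers (0; 53.7 to 78.2 CPM in ANG8 and 72.0 to 100.2 CPM in Ad_GFP). It also called 0 of 5 tested neutrophil markers (0; 31.5 to 42.0 CPM in ANG8 and 17.6 to 40.3 CPM in Ad_GFP, with Ly6g and Mpo at 0 in ANG8) and 0 of 5 tested cholangiocyte markers (2; 68.6 to 132 CPM in ANG8 and 21.2 to 77.6 CPM in Ad_GFP, with Cftr at 0 in ANG8 and Ad_GFP); DESeq2 and voom also called 0 of the last 4 lists. The cholangiocyte sum averaged 91.3 CPM in ANG8 and 47.3 CPM in Ad_GFP, of which Spp1 made up 83.0 and 42.5 CPM. Spp1 is also in the list of monocytes and lipid-associated macrophages. In the same comparison, of 15 hepatocyte markers 9 fell and 0 rose. The 6 resident markers summed to 403 to 464 CPM in ANG8 and 164 to 212 CPM in Ad_GFP, and all 35 members to 2038 to 2528 and 819 to 1116 CPM. In the other arm the resident markers summed to 133 to 228 CPM in shANG8 and 107 to 148 CPM in shCtrl, and hepatocyte markers to 64784 to 90852 and 70377 to 92088 CPM. With the mitochondrial share as a covariate, 24 members were called, against 25, and their median was 1.31, against 1.25. Marco (adjusted p = 0.0513) and Timd4 (0.0948) lost their edgeR calls in that fit. The part of the mitochondrial share in the rise was not tested.

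**Figure D5:**
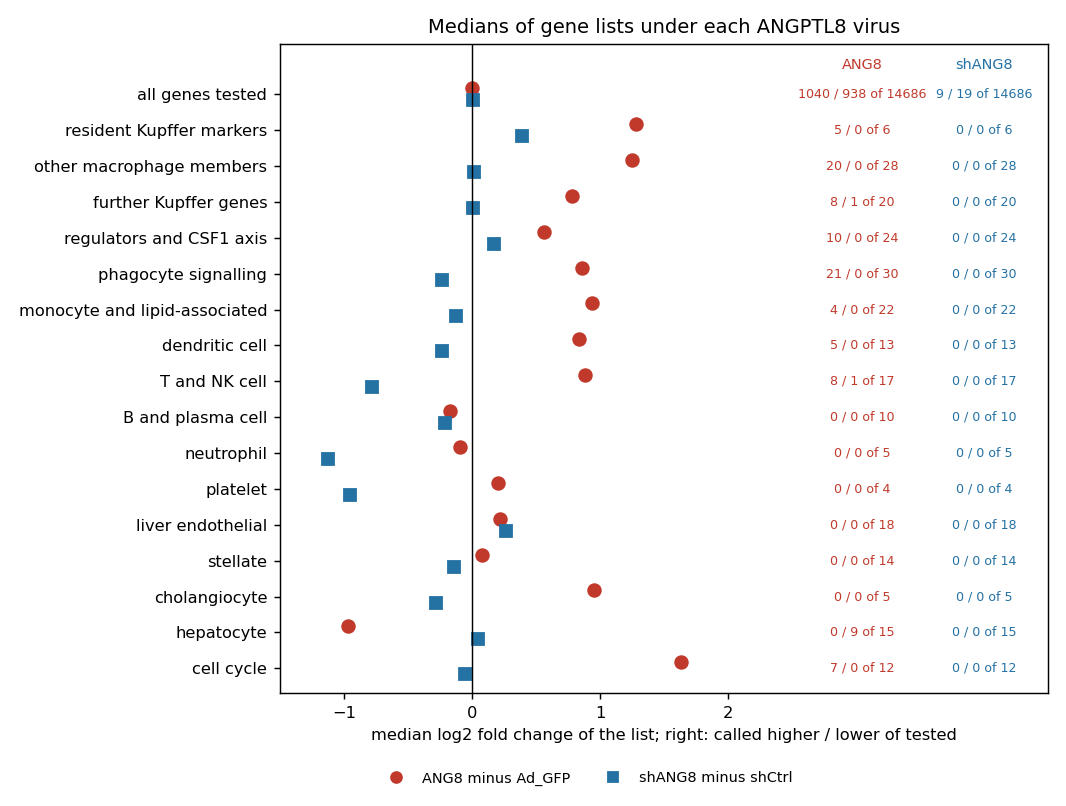
Median log2 fold change of all genes tested, the resident markers, the other members and 14 further gene lists, for ANG8 minus Ad_GFP (circles) and shANG8 minus shCtrl (squares), with the numbers called higher and lower of those tested at the right. The macrophage lists lie at 0.56 to 1.28 under ANG8. The cell cycle (1.63), cholangiocyte (0.95), T and NK cell (0.88) and dendritic cell (0.84) lists lie within or above that range. The cholangiocyte list shares Spp1 with the monocyte and lipid-associated list. The remaining lists lie at -0.96 (hepatocyte) to 0.22 (liver endothelial). Under shANG8 edgeR called no gene of any list (DESeq2 called Marco and C6, voom none).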

How the data were processed

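Liver RNA was extracted with Trizol and made into libraries with a NEBNext Ultra RNA kit, per the labels' protocols. The deposited values are raw counts per gene; the authors used CASAVA 1.8.2 and featureCounts 1.5.0-p3, per the submitters' processing notes, which name the build mm9. The coordinates in the table equal those of GENCODE M21 (GRCm38) for 98.3% of its genes and for 32 of the 35 members, and are given as in the table. The aligner and the strand setting were not stated in these sources. Library totals of 12537083 to 15144312 counts set the counting error.

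From the counts, edgeR 4.0.16 (R 4.3.3) was run with its filter on low counts by group, TMM scaling and a robust quasi-likelihood fit to all 12 libraries, with p-values adjusted by the Benjamini-Hochberg method over 14686 genes. The 4 comparisons were ANG8 minus Ad_GFP, shANG8 minus shCtrl, the difference between these effects, and shCtrl minus Ad_GFP. An SE is the log2 fold change divided by the square root of F. The fit was also run on simulated data, with results that are not given here. With 3 libraries against 3, an exact permutation test of a single gene cannot go below 0.1 and was not used. Libraries of 1 group differed by more than counting error.

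The members and lists were chosen with earlier results of these data known. Values per library are given for the 6 resident markers, the 20 members with the smallest p for ANG8 minus Ad_GFP and the 4 with the smallest p for shANG8 minus shCtrl, and up to 4 genes with the smallest p of each other list and 1 of the knockdown arm were named. C1qa, Lyz2, Cd14, Folr2, Csf1 and Il34 were shown, and Pecam1 named, after their values were seen. Alternatives were other scalings, no filter, 2 groups only, the replicate block, the mitochondrial share as a covariate, DESeq2 1.42.0, limma 3.58.1 voom and leaving out each library. Shared sequence was counted as 50-base stretches of GENCODE M21 transcripts found in another gene.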

Additional observations from a re-analysis of the deposited data

Results flagged for a closer look

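The effect of the ANG8 virus and the effect of the shANG8 virus, each against its own control, differed by edgeR's test of the difference itself in 15 members, all with the higher value under ANG8, beside 6.62% of all genes tested (3.72% in that direction). Of the resident markers, these were Spic, with a difference of 1.92 on the log2 scale, and Cd5l (1.49). Of the regulators and general markers they were Spi1 (1.12), Csf1r (1.20), Adgre1 (1.54), Aif1 (1.51), Mpeg1 (1.32) and Laptm5 (1.45). Of the receptors, adaptors and effectors they were Fcgr1 (1.99), Fcgr4 (1.65), Fcer1g (1.56), C1qb (1.05), Lgals3 (1.50), Cybb (1.32) and Axl (1.09). Adgre1, C1qb, Fcgr4, Spi1, Laptm5, Cybb and Axl each lost their call under at least 1 alternative, and 8 members were left without Ad_GFP replicate 1, Ad_GFP replicate 2, shCtrl replicate 1 or shCtrl replicate 3. Each arm was 3 libraries against 3, and none of the 15 was called in the knockdown arm alone.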

How the results depend on the processing

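Under ANG8, 20 to 26 members were called over 21 alternatives, against 25, always with 0 lower, and 20 of the 25 were called under each of them; Clec4f, Timd4, Marco, Cd68 and Gpnmb were not. Over all genes the count was 995 to 2164 when 1 library was left out, against 1978 (995, 1307, 1080 and 1133 without ANG8 replicate 1, ANG8 replicate 2, Ad_GFP replicate 1 and Ad_GFP replicate 2), and with library totals as the only scaling it split into 1095 higher and 643 lower, against 1040 and 938. No scaling moved the median of all genes by over 0.1. Under shANG8 the count over all genes was 28, and it was 132 with no filter, 55 with the replicate block, 47 with the mitochondrial covariate and 89 with DESeq2 (21 to 39 with 1 library left out); the members called were 0, but 2 with no filter and 1 with DESeq2. The difference between effects gave 972 genes, 1510 with no filter, 1550 with the replicate block and 473 to 1227 with 1 library left out (473, 592, 623, 487 and 578 without ANG8 replicate 1, Ad_GFP replicate 1, Ad_GFP replicate 2, shCtrl replicate 1 and shCtrl replicate 2), and 8 to 18 members against 15 with 1 library left out. Between the controls 0 genes were called, but 96 with no filter, 5 with the replicate block, 42 with DESeq2 and 0 to 10 with 1 library left out (10 without Ad_GFP replicate 1 and 1 without shCtrl replicate 3); DESeq2 called 1 member. The cause of these shifts was not tested. Signs changed only for values that were not called. With 1 library left out, these were, on the log2 scale, Lyz2 (-0.0499 to 0.51) and Cd163 (-0.22 to 0.84) under ANG8, Cd5l (-0.17 to 0.34) and Timd4 (-0.085 to 0.77) under shANG8, Vsig4 (-0.37 to 0.52) and Marco (-0.41 to 0.87) in the difference, and Vsig4 (-0.46 to 0.00284) and Timd4 (-0.46 to 0.052) between the controls. The difference of Marco was also 0.034 with library totals only, 0.17 with the replicate block, 0.21 with the mitochondrial covariate and 0.19 with voom, against -0.07. Over the named genes 1347 values kept direction and side of the threshold, 90 lost their call, 13 gained one and 22 changed sign.

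The replicate numbers were not used to pair the libraries, since the labels give no shared source and not every same-numbered pair correlated over 0.1 in its deviations from the group means (-0.0898 to 0.225). As a hint from the data, 7 of 9 libraries correlated best with their own number. With the replicate number as a block, 25 members were called under ANG8 (C1qa gained, adjusted p = 0.0352, and Marco lost, 0.061), 0 under shANG8, 19 for the difference and 0 between the controls. Counts of 0 to 15 left Folr2 untested, and for members at a few CPM the SE of 0.47 to 0.66 (Itgam, Ms4a7, Cd163, Cd14, Trem2) limits which differences could be detected.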
